A study of Mus musculus with 4 samples.

Results

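The 47 genes described here act in the response of cells to a stimulus or to stress. They include the Fos, Jun, ATF and BATF genes, many of whose proteins form AP-1 dimers. They also include the Egr and Klf zinc finger factors and the Nr4a orphan nuclear receptors. The others are a few more immediate early and antiproliferative genes, NF-kB and its regulators, and regulators of the hypoxia and stress responses. Peaks of the 47 genes were taken by gene name from a table of ATAC-Seq peaks. The peaks of that table differed in accessibility between Sin3B+/+ and Sin3B-/- long-term hematopoietic stem cells (LT-HSCs). Of the 47 members, 21 gave their name to at least 1 peak, and these 21 genes accounted for 37 of the 5332 peaks and for 21 of the 4376 gene names in the table. The other 26 members had no row in the table analysed here, which says nothing about how accessible they were.

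ATAC-Seq maps accessible chromatin with the Tn5 transposase, which inserts sequencing adapters where DNA is free of nucleosomes. LT-HSCs were profiled in 2 libraries per genotype (Sin3B+/+ and Sin3B-/-), each of sorted cells pooled from 2 C57BL/6 mice at homeostasis. Sin3B is a scaffold of a histone deacetylase corepressor complex. In the Sin3B-/- mice the floxed gene (Sin3B F/F) was deleted by Vav1-iCre, which acts in blood cells from fetal life onwards. The stem cells thus developed without Sin3B, and effects of its loss in the embryo and in the adult cannot be told apart. The paper's ATAC-Seq figure names the controls Sin3B F/F, and Vav1-iCre is given only for the Sin3B-/- mice. On that naming, effects of the transgene itself and of Sin3B loss cannot be told apart either. LT-HSCs were sorted from enriched marrow as Lineage-negative, Sca-1+, cKit+, Flk2-, CD48- and CD150+ cells. The mice's age is not given in the sources used here.

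Immediate early genes are induced without new protein synthesis, from chromatin that is often open and loaded with factors before the stimulus arrives. Serum response factor, which binds CArG boxes, drives much of the induction of Fos, Junb, Egr1 and Egr3. The Fos and Jun proteins then act on a later set of genes as AP-1 dimers, and NF-kB dimers are released from their inhibitors by inflammatory signals. In hematopoietic stem cells Egr1 and Nr4a1 have been linked to quiescence.

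Every peak in the table had been called different between the genotypes by the authors, so that a genotype difference in a member peak was a condition for its being listed and not a finding. Values are normalized reads per peak, called levels here. Summed over the table, the levels were 1.20 times higher in Sin3B+/+ replicate 1 than in replicate 2, and the corresponding Sin3B-/- libraries differed by a ratio of 0.914. Within each library all values were multiples of a single step to within 0.05, from which a level of 1 stood for 4.38 (Sin3B+/+ replicate 1), 2.92 (Sin3B+/+ replicate 2), 1.60 (Sin3B-/- replicate 1) and 1 (Sin3B-/- replicate 2) reads. The lowest member levels then rested on 124 and 72 reads in Sin3B+/+ and on 88 and 45 in Sin3B-/-, with counting errors of 8.98 to 14.9%. Sin3b itself had no row, so the deletion could not be checked in these values. Of 10 LT-HSC markers, Slamf1, Meis1, Procr and Gata2 had 5 peaks in the table, with log2 fold changes of 0.52 to 0.96, and none of 14 markers of mature or committed blood cells had a row.

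All 37 member peaks were higher in Sin3B-/- LT-HSCs, and in all 37 both Sin3B-/- libraries lay above both Sin3B+/+ libraries. The whole table was close to that as well: the groups did not overlap in 100% of its peaks, and 5103 of the 5332 peaks (95.7%) were called higher and 229 (4.29%) lower in Sin3B-/- by limma on log2(level + 1) with a Benjamini-Hochberg adjusted p under 0.05. limma called all 37 member peaks higher, with adjusted p-values of up to 0.033. It put the same standard error, 0.22 log2 units, on every peak, so each p followed from the size of the difference and not from the spread of that peak. Since the cells were measured in bulk, a change in every cell and a change in the share of cells with an open site cannot be told apart. An exact permutation test over 2 libraries against 2 cannot give a p below 0.33.

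Member peaks differed by a median log2 fold change of 0.87 (1.83-fold), against 0.76 (1.69-fold) over the table, where a log2 fold change compares the Sin3B-/- mean with the Sin3B+/+ mean. The middle of the members, from the first to the third quartile, ran from 0.67 to 1.02, against 0.63 to 0.97 for the table. A log2 fold change of at least 1 was reached by 11 of 37 member peaks (29.7%), against 22.8% of the table. This common level rests on the authors' scaling, whose rule is not given, and on a table limited to peaks called different. What each of these contributes was not tested. The paper itself reports higher accessibility in Sin3B-/- LT-HSCs across all of its peaks. Centring each library on its own median over these peaks shifts all of them down by 0.75 log2 units, which removes the common difference by construction. In that setting 26 member peaks (70.3%) stayed above 0 and 11 fell below it, against 2711 peaks (50.8%) above 0 over the table. The table's share is set by the centring itself. Of the member peaks 2 were then called higher, against 374 peaks (7.01%) over the table.

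**Figure D1:**
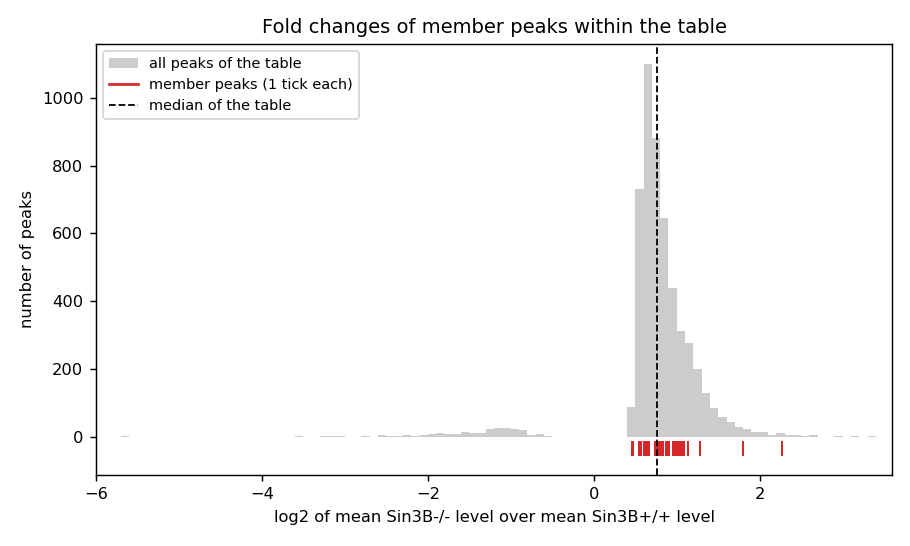
Number of peaks (y axis) by log2 fold change between Sin3B-/- and Sin3B+/+ means (x axis) for all 5332 peaks (grey bars) and the 37 member peaks (red ticks below the axis, 1 per peak). All member ticks lie right of 0, between 0.46 and 2.26, and 25 of 37 lie above the table's median of 0.76 (dashed line).

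The members fell unevenly over the roles. The 3 Nr4a genes all had rows, with 6 peaks. Fos, Fosb and Junb had rows among 7 Fos and Jun genes, with 9 peaks, and Egr1 and Egr3 among 3 Egr genes, with 5 peaks. Klf2, Klf6 and Klf13 had rows among 9 Klf genes, with 4 peaks, and Nfkb1, Nfkb2, Rel and Nfkbiz among 8 NF-kB genes, with 5 peaks. Ier2, Ier5 and Btg1 had rows among 5 other immediate early and antiproliferative genes, with 4 peaks, and Ddit4 and Gadd45a among 5 hypoxia and stress genes, with 3 peaks. Of the 7 ATF and BATF genes only Atf2 had a row, with 1 peak.

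The sequences below are from the RefSeq GRCm38 assembly, plus strand, 5′ to 3′. They show where motifs for serum response factor, Egr proteins, NF-kB or CREB fall in member peaks, with the letters of the motifs named beside each in capitals, and the windows were chosen after the matches were seen. The first is in a peak beyond the 3′ end of Fos and holds a CArG box and an Egr motif, and the next is the centre of the Fos peak with the largest difference, in which none of the 9 searched motifs occurs.

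Fos, 11998 bp downstream, CArG and Egr (chr12:85486074-85486239): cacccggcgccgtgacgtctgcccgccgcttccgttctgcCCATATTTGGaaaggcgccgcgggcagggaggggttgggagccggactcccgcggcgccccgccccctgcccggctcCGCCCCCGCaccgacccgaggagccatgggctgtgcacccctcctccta

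Fos, 5016 bp upstream, no motif (chr12:85468799-85468948): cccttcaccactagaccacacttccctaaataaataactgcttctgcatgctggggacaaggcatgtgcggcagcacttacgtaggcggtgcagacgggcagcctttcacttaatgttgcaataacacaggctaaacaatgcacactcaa

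Junb, 1262 bp upstream, NF-kB and CArG (chr8:84980085-84980208): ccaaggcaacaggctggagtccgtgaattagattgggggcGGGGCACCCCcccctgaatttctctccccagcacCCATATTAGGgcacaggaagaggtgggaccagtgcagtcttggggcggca

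Nfkb2 promoter, 2 overlapping NF-kB matches (chr19:46304689-46304717): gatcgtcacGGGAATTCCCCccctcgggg

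Nfkbiz promoter, NF-kB (chr16:55838850-55838879): tccacacgctGGAAATTCCCaggccaaaaa

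Nr4a1 promoter, NF-kB (chr15:101253841-101253930): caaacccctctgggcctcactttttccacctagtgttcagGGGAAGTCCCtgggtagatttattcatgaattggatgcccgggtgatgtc

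Ier2 start, cyclic AMP response element (CRE) (chr8:84662879-84662908): tatactgagagTGACGTCActgcaacacca

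Ier2, 2673 bp downstream, NF-kB (chr8:84660071-84660160): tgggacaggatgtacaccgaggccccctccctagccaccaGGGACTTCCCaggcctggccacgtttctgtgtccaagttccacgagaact

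Distances here and below are from the peak's centre to the nearest transcript start of the named gene in GENCODE M21, in the direction of transcription. Fos had 4 peaks, all intergenic, and none at its promoter. Fos encodes the partner that gives AP-1 dimers most of their inducibility. The peak 5016 bp upstream of Fos (chr12:85468653-85469095) measured 145 and 98.0 in Sin3B+/+ against 408 and 439 in Sin3B-/-. Both Sin3B-/- libraries thus stood well above the higher Sin3B+/+ library, and the mean was 122 ± 33.3 in Sin3B+/+ and 424 ± 21.9 in Sin3B-/- (SD, n = 2), which gives a log2 fold change of 1.80 (limma, adjusted p = 1.4e-15). It ranked 84 of 5332 by that measure. The most accessible Fos peak lay 18553 bp upstream (chr12:85454893-85455781), with 910 and 615 in Sin3B+/+ and 1649 and 1692 in Sin3B-/-, a log2 fold change of 1.13. A neighbouring weaker peak, 16030 bp upstream (chr12:85457700-85458021), measured 128 and 126 against 252 and 261, a log2 fold change of 1.01. In that peak the replicates of each genotype were nearly equal. The peak 11998 bp downstream (chr12:85485429-85486347), whose CArG box is printed above, had 328 and 215 in Sin3B+/+ and 574 and 576 in Sin3B-/-, a log2 fold change of 1.08.

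Fosb encodes a Fos paralog that is induced by the same signals. Its last exon, in the 3′ untranslated region, held the member peak with the largest difference (chr7:19303835-19304430). It measured 164 and 48.7 in Sin3B+/+ against 582 and 439 in Sin3B-/-. The means were 106 ± 81.4 and 511 ± 101 (SD, n = 2), a 4.81-fold difference or 2.26 on the log2 scale. The ratio of the Sin3B+/+ replicates, 3.37, was the largest of all 5332 peaks, and this spread is not in the limma adjusted p of 2.5e-28. A limma fit in which peaks keep more of their own variance, added after the data were seen, gave 0.0034. The log2 fold change was 1.64 when Sin3B+/+ replicate 2 was left out and 3.39 when replicate 1 was left out. An intronic peak 1103 bp downstream of the Fosb start had a log2 fold change of 0.95.

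Junb, whose protein can both activate and restrain AP-1 targets, had 3 peaks. The one at its promoter (57 bp upstream, chr8:84978531-84979019) measured 385 and 328 in Sin3B+/+ and 580 and 508 in Sin3B-/-, a log2 fold change of 0.61. The broader peak 1262 bp upstream (chr8:84979615-84980345), with a CArG box and an NF-kB match shown above, measured 622 and 504 against 809 and 951, a log2 fold change of 0.65. The smallest of the 3 covered the end of Junb and the last exon of its neighbour Prdx2 (chr8:84974331-84974547). It measured 93.1 and 78.5 against 167 and 190 and had the largest of the differences at Junb, a log2 fold change of 1.06 (limma, adjusted p = 4.8e-06). Over the 9 Fos, Fosb and Junb peaks the median log2 fold change was 1.06, the highest of the role groups, and 6 of the 9 reached 1. Of these 6, only Fos 5016 bp upstream (1.55) and Fosb in the last exon (1.64) did so without Sin3B+/+ replicate 2. The others then had 0.81 to 0.997. Without replicate 1 the 6 had 1.02 to 3.39. Only 1 of the 9 was a promoter peak, and the table's peaks outside promoters had a median of 0.83, with 30.5% at 1 or above.

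**Figure D2:**
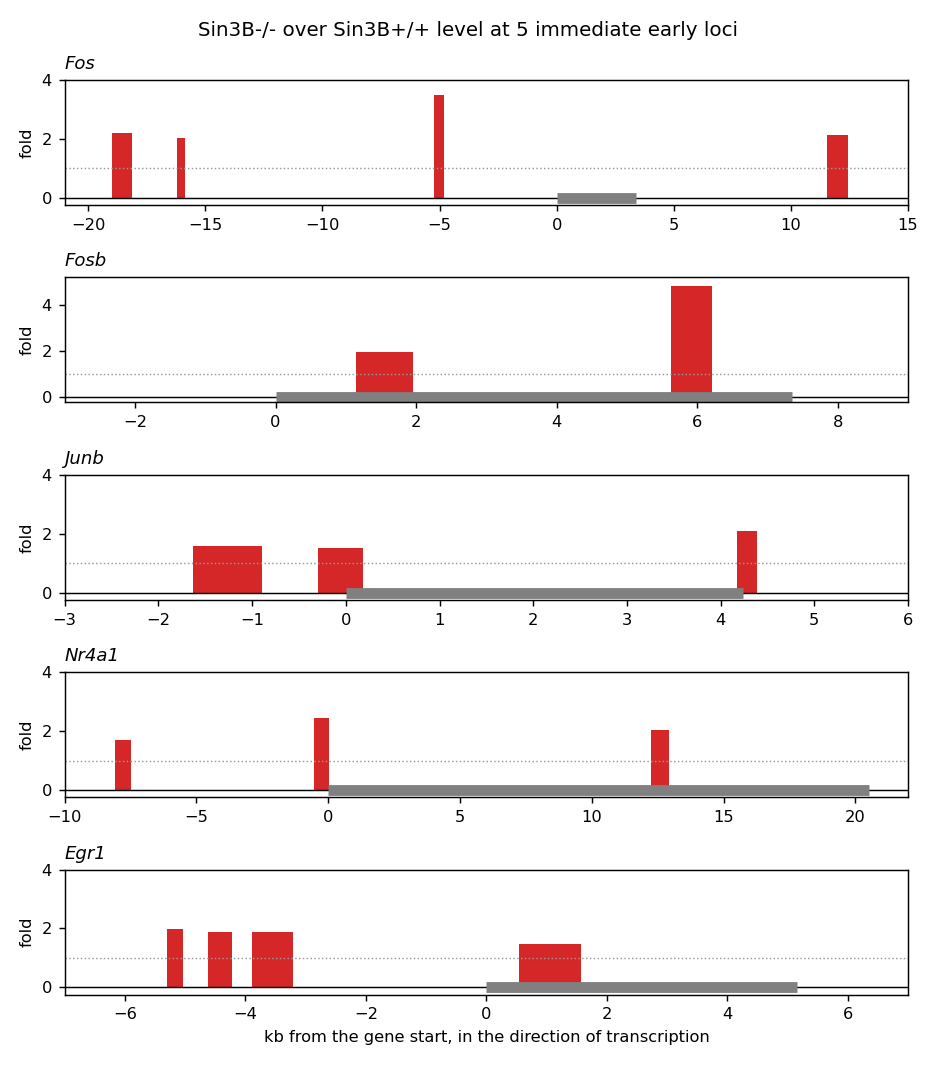
Ratio of the Sin3B-/- mean to the Sin3B+/+ mean (y axis, fold, dotted line at 1) for each peak at Fos, Fosb, Junb, Nr4a1 and Egr1, placed by distance in kb from the start of the annotated gene in the direction of transcription (x axis), which for genes with several starts differs from the distance to the nearest one. Red bars have the width of the peak and the grey block is the annotated gene. Bars rise to 4.81 in the last exon of Fosb and to 3.48 upstream of Fos, and stay between 1.49 and 1.97 at Egr1.

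Jun had no row under its own name. Its promoter nevertheless lay in the table, since 2 peaks nearest to the Jun start were named for Junos, a non-coding transcript that starts beside Jun on the other strand. The one 245 bp upstream of Jun (chr4:95051989-95052945) measured 1198 and 853 in Sin3B+/+ and 2080 and 1974 in Sin3B-/-, a log2 fold change of 0.98 (limma, adjusted p = 1.3e-05). The other, 1110 bp upstream (chr4:95053109-95053555), measured 400 and 336 against 575 and 570, a log2 fold change of 0.64. A further peak, 9921 bp upstream of Fosb and named for D830036C21Rik, had a log2 fold change of 1.22.

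Atf2, which encodes a stress kinase target that pairs with Jun, was the only member of the ATF and BATF group with a row. Its peak lay in a coding exon, 44309 bp downstream of the nearest Atf2 start (chr2:73818744-73819218) and measured 82.4 and 126 in Sin3B+/+ against 167 and 193 in Sin3B-/-, a log2 fold change of 0.79. It was 1 of the 2 member peaks in which Sin3B+/+ replicate 2 was above replicate 1. The stress-induced Atf3 and Atf4 had no row.

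Egr1, the zinc finger factor induced by growth factors through CArG boxes, had 4 peaks. At its promoter (326 bp upstream of the nearest start, chr18:34860372-34861391) it measured 1113 and 843 in Sin3B+/+ against 1466 and 1445 in Sin3B-/-, a log2 fold change of 0.57 (limma, adjusted p = 0.0073), and the call was lost when Sin3B+/+ replicate 2, Sin3B-/- replicate 1 or Sin3B-/- replicate 2 was left out. This was the most accessible Egr peak and the one with the smallest difference. The peak 3551 bp upstream (chr18:34855935-34856610) measured 682 and 512 against 1030 and 1197, a log2 fold change of 0.90. The peak 4423 bp upstream (chr18:34855196-34855605) measured 126 and 99.1 against 228 and 195, a log2 fold change of 0.91. The peak 5175 bp upstream (chr18:34854514-34854783) measured 110 and 96.0 against 192 and 214, a log2 fold change of 0.98. The 3 upstream peaks thus had larger fold changes than the promoter, but the difference between peaks was not tested. Egr3, a close relative of Egr1, had 1 peak 2403 bp upstream of its start with a log2 fold change of 0.67.

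All 3 Nr4a genes had peaks. The activity of these orphan nuclear receptors follows mainly from how much of them is made. Nr4a1 had 3 of the peaks, and its weakest, 271 bp upstream of the start of the gene (chr15:101253710-101254286), measured 73.2 and 40.8 in Sin3B+/+ and 138 and 139 in Sin3B-/-. The means were 57.0 ± 22.9 and 139 ± 0.65 (SD, n = 2), a log2 fold change of 1.28 (limma, adjusted p = 8.4e-09), the largest at a member's promoter. At a start site further inside the gene (centre 2 bp from it, chr15:101266507-101267189) Nr4a1 measured 302 and 190 against 479 and 515, a log2 fold change of 1.02. The peak 7794 bp upstream (chr15:101246164-101246787) was the most accessible of the Nr4a peaks, with 725 and 550 against 1058 and 1095, and its log2 fold change of 0.76 was that of the table's median. Nr4a2 had 2 intronic peaks, of which the one 2654 bp upstream of the nearest start (chr2:57117569-57117816) measured 29.7 and 29.1 against 76.9 and 45. The lower Sin3B-/- library there was still above both Sin3B+/+ libraries, and the log2 fold change was 1.05. The other Nr4a2 peak differed by 0.81 on the log2 scale, and the single peak of Nr4a3, 1900 bp upstream of its start, by 0.47, the second smallest difference of the members.

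**Figure D3:**
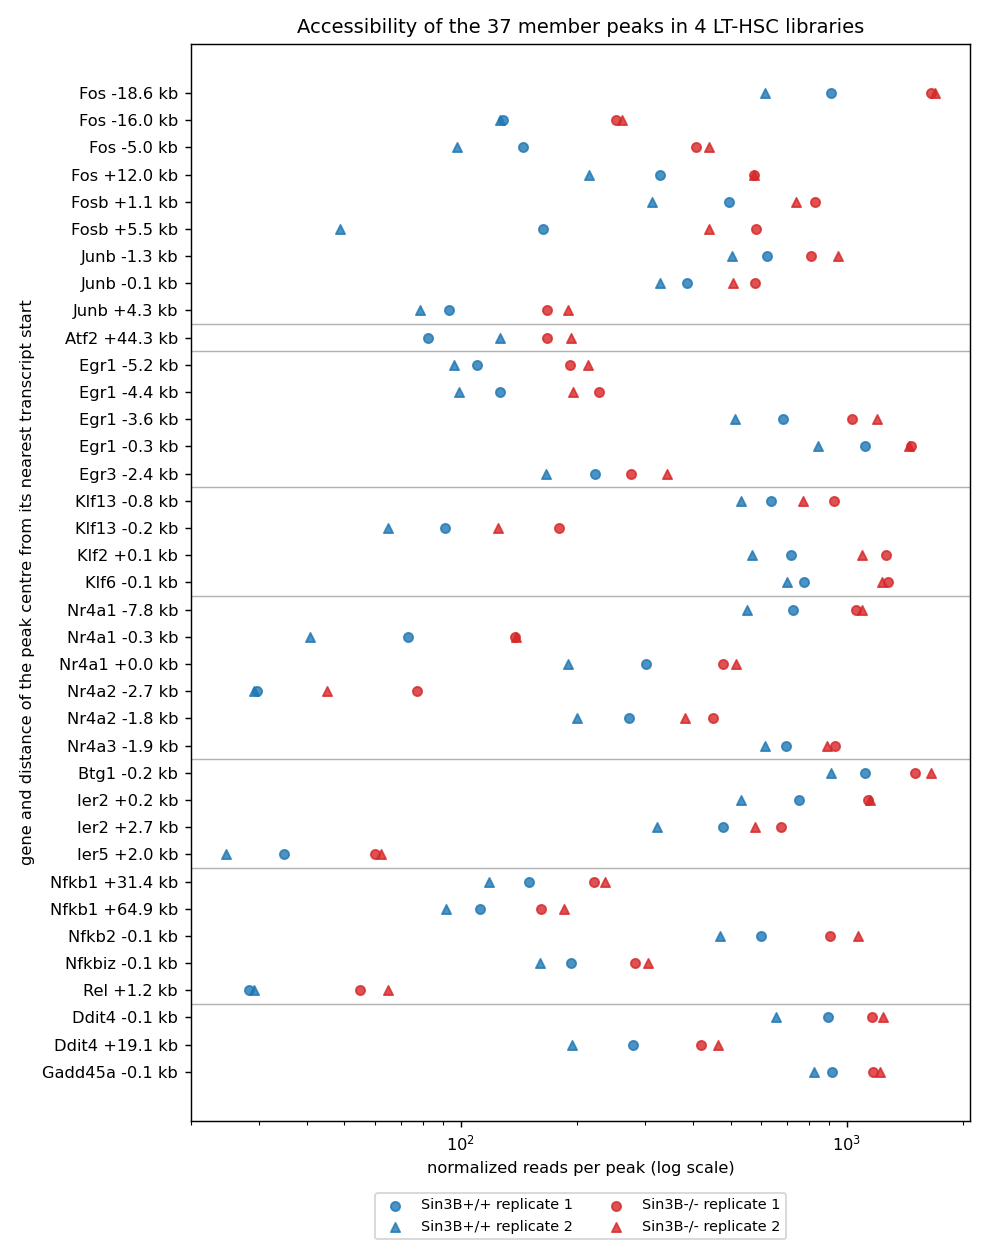
Normalized reads per peak (x axis, log scale) in each of the 4 libraries for the 37 member peaks, named by gene and by distance in kb from the nearest transcript start of that gene (y axis), with Sin3B+/+ in blue, Sin3B-/- in red, circles for replicate 1 and triangles for replicate 2. Lines separate the role groups. In every row both red points lie right of both blue points, and the widest gap between blue points is at the Fosb peak in the last exon (48.7 and 164).

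Of the 4 Klf peaks 3 were at promoters. Klf6, a growth-restraining factor, had the most accessible one (141 bp upstream, chr13:5861030-5861653), with 773 and 702 in Sin3B+/+ and 1276 and 1237 in Sin3B-/-, a log2 fold change of 0.77. Klf13 had 2 adjacent peaks near 1 of its starts. The weaker (215 bp upstream, chr7:63924924-63925247) measured 91.3 and 64.8 against 180 and 125, a log2 fold change of 0.97. The stronger (798 bp upstream, chr7:63925312-63926025) measured 636 and 533 against 927 and 772, a log2 fold change of 0.54. The peak over the start of Klf2, which keeps lymphocytes quiescent, differed by 0.87 on the log2 scale. Klf3, Klf4, Klf7, Klf9, Klf10 and Klf12 had no row.

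Among the other immediate early genes, the antiproliferative gene Btg1 had the most accessible of the promoter peaks that carry a member's name (175 bp upstream, chr10:96616383-96617279). It measured 1117 and 912 in Sin3B+/+ and 1498 and 1653 in Sin3B-/-, a log2 fold change of 0.64. The peak in the 3′ untranslated part of Ier5 (1975 bp downstream of its start, chr1:155097539-155097783) was among the weakest, with 34.9 and 24.7 against 60.0 and 62, a log2 fold change of 1.03. Ier2 had a peak across its start, with the CRE printed above and a log2 fold change of 0.83, and another 2673 bp downstream with 0.65. Ier3 and Btg2 had no row.

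The NF-kB genes with rows were 3 subunits and 1 regulator. The promoter of Nfkb2, which encodes the p100 precursor and is itself an NF-kB target, had the most accessible of these peaks (81 bp upstream, chr19:46304149-46305178). It measured 598 and 468 in Sin3B+/+ against 904 and 1069 in Sin3B-/-, a log2 fold change of 0.89 (limma, adjusted p = 9.6e-05). The promoter of Nfkbiz, an inducible nuclear inhibitor of kappa B protein (133 bp upstream, chr16:55838525-55839539), measured 193 and 160 against 283 and 305, a log2 fold change of 0.73. An intronic peak of Rel (1190 bp downstream of its start, chr11:23769673-23769887) measured 28.3 and 29.1 against 55.0 and 65, a log2 fold change of 1.06. Its levels were the lowest of the NF-kB group, so that its counting error was the largest there. Nfkb1 had 2 intronic peaks, both with log2 fold changes within 0.01 of the table's median. Rela, Relb and the feedback inhibitors Nfkbia and Tnfaip3 had no row.

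Of the stress regulators, Ddit4, an inhibitor of mTORC1 that responds to hypoxia and glucocorticoids, had a promoter peak (149 bp upstream, chr10:59951540-59952426) with 894 and 654 in Sin3B+/+ and 1161 and 1243 in Sin3B-/-, a log2 fold change of 0.64. A second peak, 19113 bp beyond the start, had a log2 fold change of 0.90. Gadd45a, a growth arrest gene, had the smallest difference of the members at its promoter (67 bp upstream, chr6:67037181-67037765), with 918 and 824 against 1172 and 1221, a log2 fold change of 0.46 (limma, adjusted p = 0.033). That call was lost when Sin3B+/+ replicate 2, Sin3B-/- replicate 1 or Sin3B-/- replicate 2 was left out, and with a replicate block. Hif1a, Ddit3 and Gadd45b had no row, but the peak over the Ddit3 start (188 bp upstream, chr10:127289824-127291348) was in the table under the name Gm4189. It measured 914 and 727 against 1231 and 1321, a log2 fold change of 0.64.

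The 10 member peaks not given by library above belonged to Fosb, Egr3, Klf2, Nfkb1, Nr4a2, Nr4a3, Ddit4 and Ier2. Their levels ran from 91.9 to 1263 over the 4 libraries and their log2 fold changes from 0.47 to 0.95. The remaining members without a row were Fosl1, Fosl2, Jund, Atf1, Atf6, Batf, Batf3 and Egr2. Of the 26 members without a row, 4 (Jun, Ddit3, Klf9 and Ier3) had a peak of the table within 10 kb of a start, and for 11 the nearest was over 100 kb away.

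Several further properties of the member peaks were compared with the table, without a test. The members had been chosen with earlier results of these data known. Of the member peaks 12 (32.4%) were promoter peaks, with their centre 1000 bp upstream to 100 bp downstream of a start. The 95% Wilson interval of that share was 19.6 to 48.5%. It treats the peaks as independent draws, which they are not, since several share a gene and the genes were chosen by name. The share in the table was 33.3%. The 12 promoter peaks belonged to 10 genes and differed by a median of 0.68 on the log2 scale, against 0.90 in the 25 other member peaks. The table had the same order, with 0.66 at its promoters and 0.83 elsewhere. Of the member promoter peaks only both of Nr4a1 reached 1 (16.7%), against 9 of the 25 others (36%). The table was split in the same direction, with 7.43% of its promoter peaks and 30.5% of its other peaks at 1 or above. Member peaks were more often intergenic (19 of 37, 51.4%) than those of the table (37.4%). Their median GC content was 57.7% against 53.3%, their median width 624 bp against 685, and their median level 371 against 263.

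A gene with several peaks was common among the members. Fos and Egr1 had 4 peaks, Junb and Nr4a1 had 3, 6 members had 2 and 11 had 1. Of all gene names in the table, 83.4% had 1 peak, 165 of 4376 had 3 or more and 45 had 4 or more. Peaks of a gene share their locus and are not independent of each other.

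The Sin3B+/+ replicates stood further apart at the median member peak than at the median peak of the table. The median ratio of replicate 1 to replicate 2 was 1.28 in the member peaks and 1.20 in the table, and 26 of 37 members were above the table's median. A log2 ratio above 0.5 was found in 10 of the 37 member peaks and in 12.6% of the table. Of the 6 Fos and Fosb peaks 5 passed it, as did 2 of the 3 Nr4a1 peaks. By role group the median log2 ratio was highest for Fos, Fosb and Junb (0.57), against 0.26 in the table. It was 0.29 in both the Klf and NF-kB groups, close to the table's value. At the single Atf2 peak it was -0.61, so that the replicates stood apart there too, with replicate 2 the higher. Among the SRF, Elk and immediate early genes listed below, peaks of Per1, Zfp36 and Elk4 passed 0.5 too, and most peaks did not. Taken without sign, the log2 ratio of the Sin3B-/- replicates had a median of 0.15 in the members, against 0.17 in the table, and that of the Sin3B+/+ replicates 0.40 against 0.27. The widest gap between Sin3B-/- replicates at a member was at the weaker Nr4a2 peak (0.77). The replicates are separate pools of mice, and the source of this spread was not tested.

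**Figure D4:**
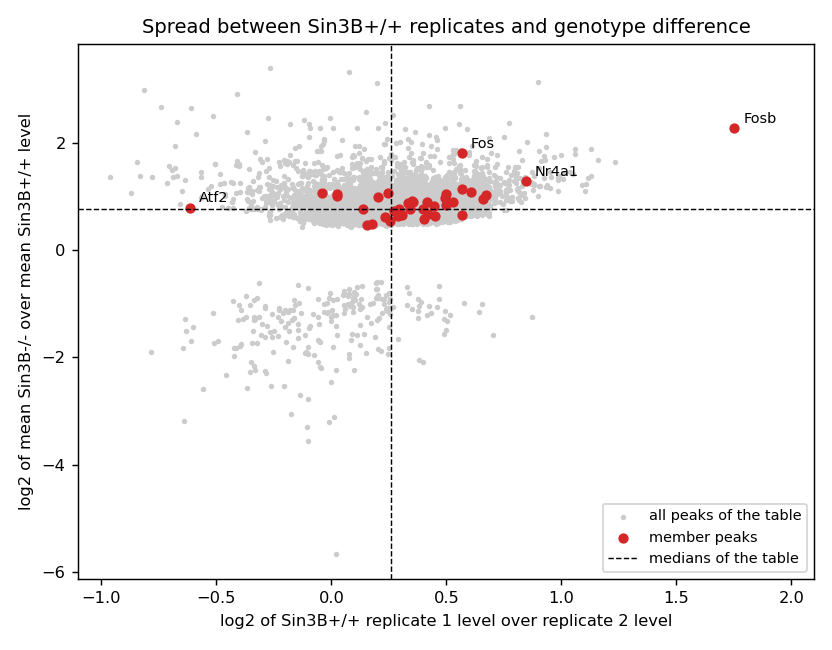
Log2 fold change between Sin3B-/- and Sin3B+/+ means (y axis) against log2 of the level in Sin3B+/+ replicate 1 over that in replicate 2 (x axis) for all peaks (grey) and member peaks (red), with the table's medians as dashed lines. The Fosb peak in the last exon is furthest right of all points, at 1.75, and Atf2 is furthest left of the members, at -0.61.

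Exact matches to 9 motifs were counted on both strands of the whole peak, as descriptions of letters and not of bound sites. The AP-1 motif TGANTCA, bound by the proteins many members encode, was in 2 member peaks (5.41%), 1 of Egr1 and 1 of Klf13, against 19.8% of the table. None of the 9 Fos, Fosb and Junb peaks held it. The table's peaks with the AP-1 motif had a median GC content of 51.8%, below the 57.7% of all member peaks. The motif was in 1 member promoter peak (8.33%) and in 1 other member peak (4%), against 15.1% and 22.1% in the table. The Egr motif GCGNGGGCG was in 9 member peaks (24.3%), against 6.55% of the table. They were all 3 Nr4a1 peaks, the Nr4a3 peak and 1 peak each of Fos, Egr1, Egr3, Klf2 and Btg1. Their median GC content was 65.2%, and that of the table's peaks with the motif 61.6%. Among the peaks not counted as promoter peaks the motif was in 5 of 25 of the members, against 2.39% of those in the table. These 5 are not all far from a start. The Klf2 peak covers the Klf2 start, and only its centre, 120 bp downstream, lies outside the promoter window. The Egr3 and Nr4a3 peaks are centred 2403 and 1900 bp upstream of a start.

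The CArG box was in 5 member peaks (13.5%), 1 each of Fos, Junb, Egr1, Egr3 and Nfkbiz, against 3.17% of the table. The NF-kB consensus was in 7 (18.9%), 2 of Nr4a1 and 1 each of Fosb, Junb, Nfkb2, Nfkbiz and Ier2, against 11.1%. Near the table's shares were the Klf motif CCNCACCC in 11 member peaks (29.7%, against 33.1%) and the hypoxia element core ACGTG in 15 (40.5%, against 41.4%). The cyclic AMP response element TGACGTCA (Ier2) and the ATF4 motif TGATGCAA (Nr4a3) were each in 1 (2.70%), against 3.73% and 1.82%, and the Nr4a motif AAAGGTCA was in none, against 2.70%. For comparison, among 27025 RefSeq promoters the shares were 7.93% for AP-1, 5.55% for Egr, 16.4% for Klf, 19.7% for the hypoxia core, 4.35% for NF-kB, 1.57% for CArG, 1.88% for the cyclic AMP element, 0.929% for ATF4 and 1.46% for Nr4a. Peaks and these promoters differ in length, and ACGTG also counts every CACGTG E-box.

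**Figure D5:**
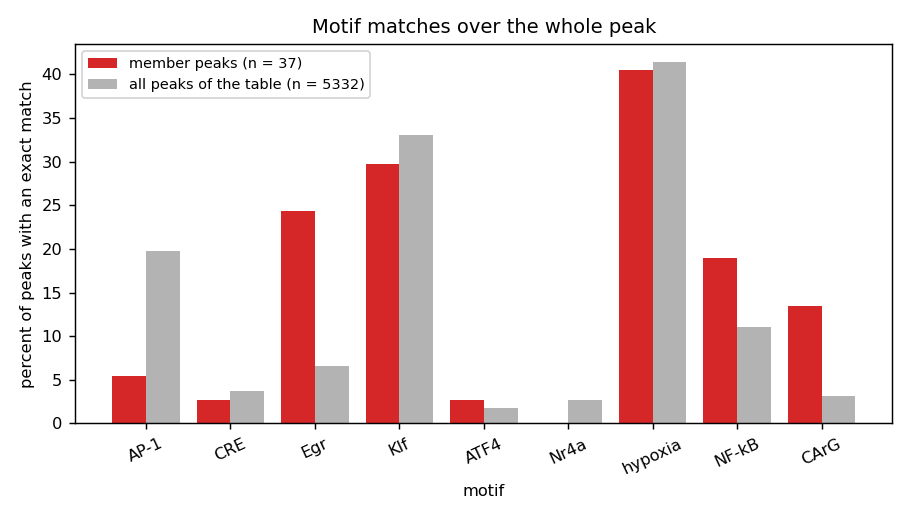
Percent of peaks with at least 1 exact match on either strand (y axis) for 9 motifs (x axis), in the 37 member peaks (red) and all 5332 peaks (grey). The Egr and CArG bars are taller in members (24.3 and 13.5%) than in the table (6.55 and 3.17%), and the AP-1 bar is lower (5.41 against 19.8%).

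Other genes of the same pathways, 120 in 5 lists, were looked up in the same way. Of these, 50 had rows, with 71 peaks, all called higher in Sin3B-/- and none lower (table, 95.7% and 4.29%). Their median log2 fold change was 0.76, as in the table, and 15 of the 71 reached 1 (table, 22.8%). Among 25 other bZIP factors 13 had 22 peaks with a median of 0.77. The largest were 2 intergenic peaks of Creb5, with 1.65 and 1.17, and peaks of Crem (1.38) and Bach1 (1.14). Among 20 SRF, Elk and immediate early genes 12 had 19 peaks with a median of 0.79. Here an exonic peak of Tob2, a relative of Btg1, rose from 90.6 and 73.7 in Sin3B+/+ to 287 and 371 in Sin3B-/-, a log2 fold change of 2.00. Others at or above 1 in that list were Csrnp1 (1.14), the clock gene Per1 (1.02 and 1.05), Ier5l (1.03) and the SRF coactivator Mkl1 (1.02).

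Among 31 NF-kB pathway genes 8 had 10 peaks with a median of 0.67, and those at or above 1 were at the promoters of Traf1 (1.46), which encodes an adaptor of TNF receptor signalling, and Birc3 (1.03), which encodes a ubiquitin ligase of the same pathway. Among 30 genes of the hypoxia, integrated stress and unfolded protein responses 12 had 14 peaks with a median of 0.68. The largest were in Ppp1r15a, which encodes the stress-induced phosphatase subunit GADD34. Its promoter measured 601 and 460 in Sin3B+/+ and 1245 and 1312 in Sin3B-/-, a log2 fold change of 1.27, and a coding exon peak 890 bp downstream measured 392 and 381 against 1076 and 1054, or 1.46. In that exon peak the Sin3B+/+ replicates were nearly equal, unlike at the Fosb exon. The endoplasmic reticulum stress sensor Ern1 had 1.23. Among 14 other Egr, Klf and Sp factors 5 had 6 peaks with a median of 0.76, none of which reached 1.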

How the data were processed

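ATAC-Seq was performed on 2 Sin3B+/+ and 2 Sin3B-/- LT-HSC libraries. Per the labels and the study's methods, the authors used FastQC, Trimmomatic, Bowtie2, sambamba, MACS2, deepTools, DiffBind, DESeq2 and HOMER. Their versions are not given in the sources used here. The deposited values per library are a signal, the reads in each peak scaled by the authors with 1 factor per library, for peaks with an FDR under 0.05. The rule behind the factors is not given in the sources used here. Columns with the authors' group means, fold, p-value and FDR were not used, and no column of values per library was left unmapped (0). The unit became known only with the values: planned tests on counts were not run, because reads could be inferred only from steps in the values.

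The labels name mm9 and the methods mm10. GENCODE M21 (GRCm38) held the gene identifiers of 5330 peaks, with identical coordinates in 96.6%, and was used. limma 3.58.1 (R 4.3.3) was fitted to log2(level + 1) over all 5332 peaks without a replicate block, with Benjamini-Hochberg adjustment and a threshold of 0.05. Same-numbered libraries came from different mice, and their deviations had a correlation of -0.101 over peaks. On simulated data limma recovered 100% of 200 peaks changed 2-fold or 4-fold among 5332 and falsely called 0.117% of the others. The simulated peaks all had the same spread on the log2 scale and most were unchanged, unlike the peaks of the table. These rates therefore do not carry over to the calls made here. Since the table holds only called peaks, these calls are not independent of the authors' own. The limma estimates, from means of log values, differed from the log2 ratio of means by up to 0.22 (Fosb, last exon) and otherwise by at most 0.07.

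Members, lists and tests were chosen with earlier results of these data known. Values per library are given for member peaks with a log2 fold change of at least 1, promoter peaks, all peaks of members with 3 or more, and the most accessible peak of each role group. Other genes of the pathways are named from a log2 fold change of at least 1. Python 3.11.15, numpy 2.4.6, pandas 2.3.3, scipy 1.17.1, matplotlib 3.10.9 and pysam 0.24.0 were used. Total depth is unknown. Counting errors cover the reads inferred in the table and not PCR duplicates or pools. A further sequence window that was examined is not reported here.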

Additional observations from a re-analysis of the deposited data

How the results depend on the processing

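All 37 member peaks stayed higher in Sin3B-/- under every alternative that kept the authors' scaling. limma called 37 of them with a pseudocount of 0.5 or 5 and with a robust variance and level trend, 34 at an adjusted p under 0.01, 34 of 34 with a mean level of at least 50, and 30 to 37 when 1 library was left out, the lone library then being assumed to vary like the others. The Egr1 promoter, Nr4a3 and Gadd45a lost their call without Sin3B+/+ replicate 2, Sin3B-/- replicate 1 or Sin3B-/- replicate 2; peaks of Ddit4, Klf13, Ier2, Junb, Nr4a2, Btg1 and Egr3 lost it in 1 or 2 of these fits. With a replicate block 35 were called and the peaks of Nr4a3 and Gadd45a were not; with the crossed pairing, added after the data were seen, 37 were. Without the Fosb peak in the last exon, also added then, 36 were called and the median log2 fold change was 0.85. The median was 0.77 with 1 value per gene and 0.70 to 1.05 when 1 library was left out. Centring each library on its median lowered the calls to 2 (the peaks of Fos 5016 bp upstream and of Fosb in the last exon). The median fell to 0.13 and the share above 0 to 70.3% (table, 50.8%), as the construction sets the table's median near 0. Since centring takes 0.75 log2 units off every peak, any peak with a smaller gain falls below 0. In that setting the log2 difference turned negative at Gadd45a (-0.29), Nr4a3 (-0.28), Klf13 798 bp upstream (-0.21), the Egr1 promoter (-0.17), the Junb promoter (-0.14), Btg1 (-0.11), Junb 1262 bp upstream (-0.10), the Ddit4 promoter (-0.10), Ier2 2673 bp downstream (-0.083), Egr3 (-0.076) and Nfkbiz (-0.018). The promoter share was 56.8% within 2500 bp of a start (table, 49.6%) and 32.4% by overlap of a start (table, 34.6%). By nearest start 21 members had a peak, Jun and Ddit3 in place of Atf2 and Nfkb1, and by the gene body with 1000 bp upstream 20, Jun and Ddit3 in place of Fos, Egr3 and Nr4a3. In the central 200 bp of peaks, fewer letters being searched, the matches fell, with shares of members against shares of the whole table in brackets, to 2 for Egr (5.41%, against 1.59%), 2 for CArG (5.41%, against 1.01%), 4 for NF-kB (10.8%, against 3.47%), 5 for Klf (13.5%, against 11.8%), 4 for the hypoxia core (10.8%, against 15.7%), and 0 for AP-1 (against 7.43%), the cyclic AMP element (1.39%) and ATF4 (0.581%). Tests of counts with edgeR and DESeq2 were planned and not run. Depth limits the weakest peaks most: Rel, Ier5 and the weaker Nr4a2 peak rest on as few as 45 reads.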

Other observations

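Besides the Jun and Ddit3 promoters, 4 other peaks whose nearest transcript start was that of a member carried another gene's name in the table. The peak 13344 bp upstream of Nr4a1, named for Grasp, measured 97.0 and 101 in Sin3B+/+ and 191 and 198 in Sin3B-/-, a log2 fold change of 0.97. The peak 9921 bp upstream of Fosb, named for D830036C21Rik, measured 249 and 165 against 499 and 465, a log2 fold change of 1.22. The peak 46898 bp downstream of the Klf2 start, in an intron of Eps15l1, measured 54.1 and 54.5 against 98.1 and 100, a log2 fold change of 0.87. The peak 27823 bp downstream of the Egr1 start, named for Etf1, measured 129 and 98.7 against 179 and 209, a log2 fold change of 0.77. For members without a row, the table peak nearest to the Rela start was named for Kat5 (log2 fold change 1.65), that nearest to Relb for Clptm1 (1.37) and that nearest to Tnfaip3 for 1700124M09Rik (1.50), each more than 20 kb from the start, and nothing in the table ties these peaks to the NF-kB genes.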
